A study of Mus musculus with 6 samples.

Results

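Fibroblast growth factor (FGF) genes and the genes that transmit or restrain FGF signals were compared between cells with and without the transcription factor Zeb2, called Sip1 in the study's title. The set was chosen by gene symbol alone. It took every numbered Fgf gene, the receptors Fgfr1 to Fgfr4 and Fgfrl1, the adaptors Frs2 and Frs3, the Sprouty and Spred genes, Dusp6, and Il17rd, which is also known as Sef. The rule found 37 of the 36291 gene rows of the count table. These were 18 secreted ligands, 4 intracellular FGF genes, 5 receptors, 2 adaptors, 3 Sprouty genes, 3 Spred genes, and Dusp6 with Il17rd.

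The study asked how Zeb2 bears on the migration of cortical interneurons. The libraries hold messenger RNA of green fluorescent cells, sorted at E14.5 from the telencephalon of embryos of Swiss mice. In both genotypes the fluorescence marked cells in which an Nkx2-1-iCre driver had acted, so all 6 libraries come from the lineage of Nkx2-1-expressing cells, to which the medial ganglionic eminence belongs. The 3 knockout (KO) libraries are from embryos in which Sip1 was removed with this driver, and the 3 wild-type (WT) libraries are the controls. The labels do not give the alleles of the controls, the deleted part of the gene, or whether each library is 1 embryo or a pool. Each library also carries 1 of 3 numbers (K77, K79, K80), every number occurring in both genotypes, and the labels do not say what the number stands for. Where nothing says that libraries came from separate embryos, p-values measure only the spread between these libraries.

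FGF ligands bind receptor tyrosine kinases outside the cell, and the docking proteins encoded by Frs2 and Frs3 then link the receptors to the Ras and ERK kinases. ERK activity switches on genes for its own inhibitors, among them the Sprouty genes and Dusp6, so that their transcripts are widely used as readouts of the signal. In the embryonic telencephalon FGF signals from the midline pattern the ventral forebrain and maintain its progenitors. The intracellular FGF proteins are not secreted and are known instead as partners of voltage-gated sodium channels.

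Read counts assigned to genes ranged from 8323531 to 11069437 per library. Levels are given as CPM, the reads of a gene relative to the library's size after TMM scaling, with the mean ± SD over n = 3 libraries per genotype. Log2 fold changes are KO against WT, each with its standard error (SE). Zeb2, the targeted gene, stood at 705, 513 and 768 CPM in WT K77, K79 and K80 and at 343, 272 and 307 CPM in the KO libraries in the same order. Of the cell type markers, the interneuron genes Lhx6 (1060 ± 117 CPM in WT) and Dlx1 (1240 ± 122 CPM) were abundant. The summed level of 10 interneuron markers ranged from 5140 to 6360 CPM in WT and from 5430 to 6380 CPM in KO. Of the 10, edgeR called 2 higher at an adjusted p under 0.05, Nkx2-1 (log2 fold change 0.70) and Gad2 (0.56). It called 3 lower, Maf (-3.07), Erbb4 (-0.87) and Dlx5 (-0.45). Of all genes tested, 3.64% were called higher and 2.62% lower. Dlx5 lost its call without WT K77, WT K80, KO K79 or KO K80 (edgeR adjusted p up to 0.13). WT K79 stood apart from the rest, with 2510 CPM of Xist, the X-inactivation transcript of female cells, and 1.28 to 2.54 CPM in the other 5, and results that lean on WT K79 are given with and without it.

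Within the set, the Sprouty genes moved in opposite directions. Spry1 and Spry2 rose in KO, Spry4 fell, and so did the intracellular FGF gene Fgf12, while the receptor, adaptor and Spred genes gave no call. Of the 37 members, 25 had enough reads to be tested, and edgeR called 4 at an adjusted p under 0.05, 2 higher and 2 lower. Over all 13835 genes tested edgeR called 6.27%, with 3.64% higher and 2.62% lower in KO. The median log2 fold change of the 25 members was 0.12, against -0.01 over all genes tested, and 13 of them lay above 0 and 12 below. With the K number as a block edgeR called 9 members, 5 higher and 4 lower, where it called 10.6% of all genes tested. KO and WT libraries did not overlap in CPM for 11 of the 25 members, against 23.2% of all genes tested.

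**Figure D1:**
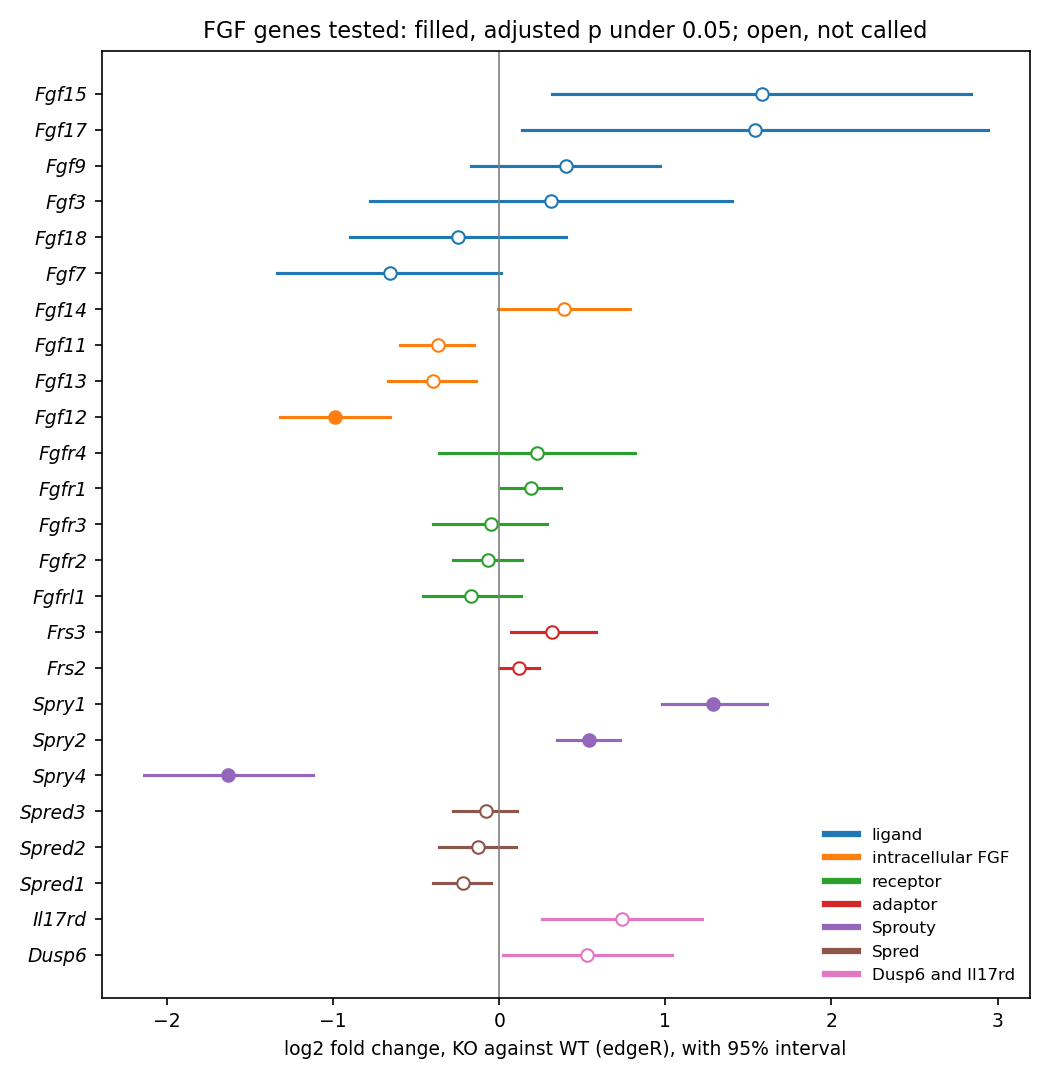
Log2 fold change (x axis, KO against WT) of the 25 FGF genes tested, with the 95% interval from the edgeR fit as a line. Filled points are the 4 genes called at an adjusted p under 0.05 (Spry1 at 1.29, Spry2 at 0.54, Fgf12 at -0.99 and Spry4 at -1.63), open points the 21 others, and colours give the role of the gene.

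The sequences before the start sites of 3 of the called genes are shown because Zeb2 is known to bind the element CACCT, and because Spry1 and Spry2 rose together. They are the 250 bases before the annotated start, from RefSeq (GRCm38.p6), read 5′ to 3′ on the strand of the gene, with CACCT or its reverse complement AGGTG in capitals. Fgf12 has several start sites in that table, and the outermost is shown.
Spry1, chr3:37639697-37639946, plus strand: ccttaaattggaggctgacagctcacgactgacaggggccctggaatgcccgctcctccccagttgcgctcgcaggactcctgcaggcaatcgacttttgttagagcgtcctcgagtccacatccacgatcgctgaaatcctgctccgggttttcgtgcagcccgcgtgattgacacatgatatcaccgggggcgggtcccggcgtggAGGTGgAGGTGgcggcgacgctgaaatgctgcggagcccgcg
Spry2, chr14:105896820-105897069, minus strand: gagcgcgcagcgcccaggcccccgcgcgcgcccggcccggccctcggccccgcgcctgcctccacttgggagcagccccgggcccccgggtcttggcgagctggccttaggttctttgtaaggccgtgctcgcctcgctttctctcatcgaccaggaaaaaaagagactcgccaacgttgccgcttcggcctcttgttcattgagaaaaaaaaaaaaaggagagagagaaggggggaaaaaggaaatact
Fgf12, chr16:28753244-28753493, minus strand: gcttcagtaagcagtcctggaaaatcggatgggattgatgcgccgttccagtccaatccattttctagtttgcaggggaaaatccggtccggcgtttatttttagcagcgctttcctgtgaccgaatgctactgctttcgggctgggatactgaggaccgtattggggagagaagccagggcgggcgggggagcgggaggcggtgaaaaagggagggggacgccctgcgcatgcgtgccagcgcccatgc
The Spry1 window held 2 copies of AGGTG, their first bases 42 and 36 bases before the start, and the Spry2 window and the printed Fgf12 window held none. Of the 4 Fgf12 windows in the table, 2 of those not printed held 1 copy each. CACCT on either strand occurred in 46.0% of 32851 such windows of all genes in the table, and 29 of the 37 members were matched there, 13 of them with CACCT in at least 1 window. Some members have several windows, and counted by window, as for all genes, 14 of 36 held CACCT. Not matched were Fgf1, Fgf8, Fgf15, Fgf16, Fgf17, Fgf20, Fgfr1 and Spry4. The longer form CACCTG occurred on either strand in 17.2% of all windows and, counted within the CACCT matches, in 3 members (3 of the 36 windows). CCGGAAG, a form of the element bound by ETS factors, occurred on either strand in 6.91% of all windows and in 2 members. These matches describe letters only, and no binding was measured.

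The Sprouty genes encode intracellular inhibitors that are induced by FGF and other receptor tyrosine kinase signals and that dampen the path to ERK. Spry1 stood at 8.40, 10.5 and 8.26 CPM in WT K77, K79 and K80 and at 19.6, 24.6 and 22.2 CPM in the KO libraries in that order. Every KO library lay well above every WT library. The mean rose from 9.04 ± 1.23 to 22.1 ± 2.49 CPM, 2.45-fold (log2 fold change 1.29 with SE 0.141, adjusted p = 0.000591 by edgeR). Within the 3 numbers KO stood 2.33, 2.35 and 2.69 times as high as WT. An annotated gene on the opposite strand, Gm42922, overlaps exons of Spry1, and reads of the pair cannot be told apart, since the sources used here do not say whether counting used strand. The same holds for Fgf14, Fgf15, Fgfr1, Fgfr3, Frs3 and Spred3, which also overlap opposite-strand exons, and Fgfr2 overlaps Ctbp2 on its own strand.

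Spry2 was the most abundant Sprouty gene in both genotypes per length of exon, at 11.2 ± 0.536 CPM per kilobase in WT. Its libraries held 24.6, 22.8 and 22.6 CPM in WT and 34.9, 32.6 and 34.4 CPM in KO. The groups did not overlap, and the spread within each was small. The mean rose from 23.4 ± 1.12 to 34 ± 1.23 CPM, 1.45-fold (log2 fold change 0.54 with SE 0.0854, adjusted p = 0.00441 by edgeR).

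Spry4 moved the other way. It stood at 6.54, 6.05 and 5.79 CPM in WT and at 1.80, 2.57 and 1.54 CPM in KO, on 60, 63 and 61 reads in the WT libraries against 15, 26 and 17 in KO. The mean fell from 6.13 ± 0.382 to 1.97 ± 0.532 CPM, 3.09-fold (log2 fold change -1.63 with SE 0.229, adjusted p = 0.00226 by edgeR). KO K79 held the highest of the KO values, still under every WT value by more than a factor of 2.

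Because both genes were counted in the same libraries, their ratio does not depend on the scaling of library sizes. The WT libraries held 1.28, 1.73 and 1.43 Spry1 reads for each Spry4 read, and the KO libraries held 10.9, 9.58 and 14.4. The Spry2 to Spry4 ratio was 3.77, 3.78 and 3.90 in WT and 19.3, 12.7 and 22.4 in KO. Per length of exon, Spry4 made up 8.04 to 8.56% of Sprouty reads in WT and 1.32 to 2.19% in KO. The share of Spry1 went from 18.0 to 22.8% in WT to 28.3 to 34.4% in KO, and that of Spry2 from 69.2 to 73.5% to 63.4 to 70.1%. The sum of the 3 genes was 36.6 to 39.6 CPM in WT and 56.3 to 59.7 CPM in KO. These pairs were looked at after their values had been seen, so the ratios and shares are given with no test.

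Markers of oligodendrocyte precursors, a later product of this lineage that depends on growth factor receptors, moved in the same direction as Spry4. Of 6 such markers edgeR called 5 lower (Pdgfra, Cspg4, Olig1, Sox10 and Gpr17), against 2.62% of all genes tested. Olig2, the other marker, was called lower by edgeR only with the block (adjusted p = 0.0148), and by DESeq2 (adjusted p = 0.0415). The summed level of the 6 was 126 to 148 CPM in WT and 50.9 to 59.3 CPM in KO. None of them was at 0 in all libraries. The part of these cells in the level of Spry4 was not tested. In bulk libraries fewer cells of a type and less RNA per cell cannot be told apart.

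**Figure D2:**
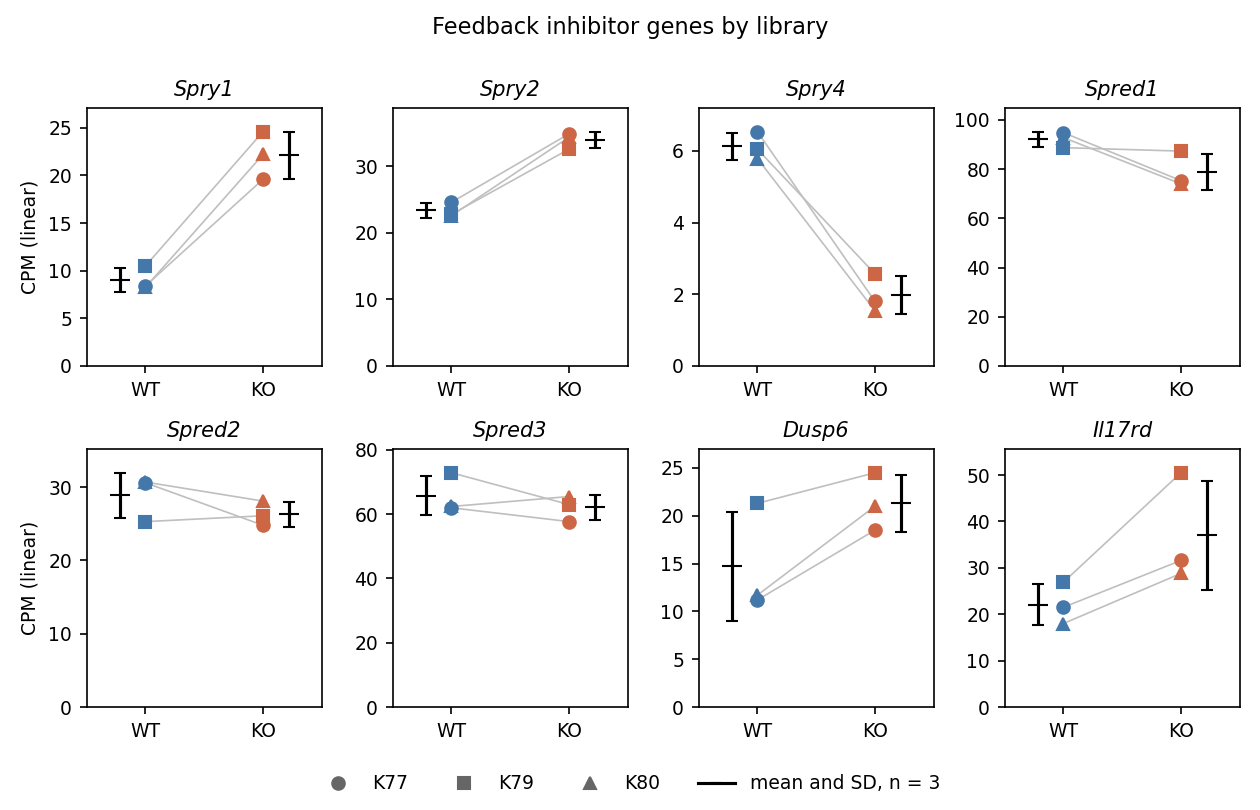
Level in CPM (linear y axis from 0) of 8 feedback inhibitor genes in each WT and KO library, with lines joining libraries of the same K number and bars giving the mean and SD of 3 libraries. Spry1 and Spry2 are higher and Spry4 lower in all KO libraries, while Spred2 and Spred3 overlap between the genotypes.

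Dusp6 encodes a phosphatase that inactivates ERK, and Il17rd a membrane inhibitor of FGF receptor signalling. Neither was called by edgeR in the unblocked fit, and both were called higher when libraries were compared within K numbers. Il17rd stood at 21.5, 26.9 and 18.0 CPM in WT and at 31.6, 50.5 and 28.8 CPM in KO. The groups did not overlap, and KO K79 stood far above the other KO libraries. The log2 fold change was 0.74 (SE 0.214, edgeR adjusted p = 0.0771, and 0.00117 with the block). DESeq2 called it too, at an adjusted p of 0.00393, and without KO K79 its log2 fold change was 0.44 (edgeR adjusted p = 0.242). Without WT K79 edgeR called Il17rd higher.

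Dusp6 stood at 11.2, 21.3 and 11.7 CPM in WT and at 18.5, 24.5 and 21.0 CPM in KO. WT K79 lay within the KO range, and KO was higher than WT within each of the 3 numbers. The log2 fold change was 0.53 (SE 0.228, edgeR adjusted p = 0.245, and 0.0313 with the block). Without WT K79 it was 0.90, with an edgeR adjusted p of 0.00689.

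The Spred genes encode membrane inhibitors of Ras activation that are relatives of Sprouty, and none of the 3 was called. Spred1 stood at 94.8, 88.7 and 92.8 CPM in WT and at 75.3, 87.3 and 74.0 CPM in KO. The groups did not overlap, though KO K79 came close to the lowest WT library. The log2 fold change of Spred1 was -0.22 (SE 0.0776, edgeR adjusted p = 0.143). Spred2 (30.6, 25.3 and 30.7 CPM in WT, 24.8, 26.1 and 28.1 in KO) and Spred3 (62.0, 72.9 and 62.4 CPM in WT, 57.7, 63.0 and 65.5 in KO) overlapped between genotypes. Their 95% intervals ran from -0.36 to 0.10 and from -0.28 to 0.11 on the log2 scale, which leaves out changes as large as those of the called Sprouty genes.

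Per length of exon, the WT mean of each intracellular FGF gene stood above that of every secreted ligand, although in WT K79 Fgf15 (3.73 CPM per kilobase) exceeded Fgf12 (3.62). In CPM, 3 of the 4 intracellular genes were lower in all KO than in all WT libraries, and edgeR called 1 of them. Of all genes tested, 23.2% did not overlap in either direction and 2.62% were called lower. Fgf12 stood at 28.6, 22.5 and 34.1 CPM in WT and at 14.2, 14.7 and 14.0 CPM in KO. The KO libraries lay close together, and WT K79 was the nearest of the WT libraries to them. The mean fell from 28.4 ± 5.81 to 14.3 ± 0.381 CPM, 1.99-fold (log2 fold change -0.99 with SE 0.150, adjusted p = 0.00348 by edgeR). The counts are per gene, so the transcripts from its several start sites are pooled.

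Fgf13, known for roles at sodium channels and microtubules in migrating cortical neurons, was the most abundant member per length, at 33.0 ± 5.75 CPM per kilobase in WT. It stood at 132, 110 and 157 CPM in WT and at 102, 90.7 and 109 CPM in KO. The lowest WT library, K79, lay just above the highest KO library. The log2 fold change was -0.40 (SE 0.118, edgeR adjusted p = 0.0827, and 0.00328 with the block), and DESeq2 gave an adjusted p of 0.0139. Fgf13 lies on the X chromosome, and WT K79 is the library with Xist. Without it the log2 fold change was -0.52 (edgeR adjusted p = 0.0116).

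Fgf11 stood at 49.6, 43.2 and 43.6 CPM in WT and at 38.7, 31.1 and 35.6 CPM in KO. The groups did not overlap, and the difference was of a like size within each number. The log2 fold change was -0.37 (SE 0.10, edgeR adjusted p = 0.0585, and 0.0123 with the block). Fgf14 was the exception to the direction, at 19.2, 24.9 and 19.8 CPM in WT and 20.3, 34.2 and 28.9 CPM in KO. Its log2 fold change of 0.39 was not called (SE 0.178, edgeR adjusted p = 0.280, and 0.0552 with the block). An annotated opposite-strand gene overlaps its exons. Per length, Fgf12 made up 7.07 to 8.65% of intracellular FGF reads in WT and 4.69 to 5.47% in KO, while Fgf14 made up 7.47 to 11.6% and 10.7 to 18.9%.

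**Figure D3:**
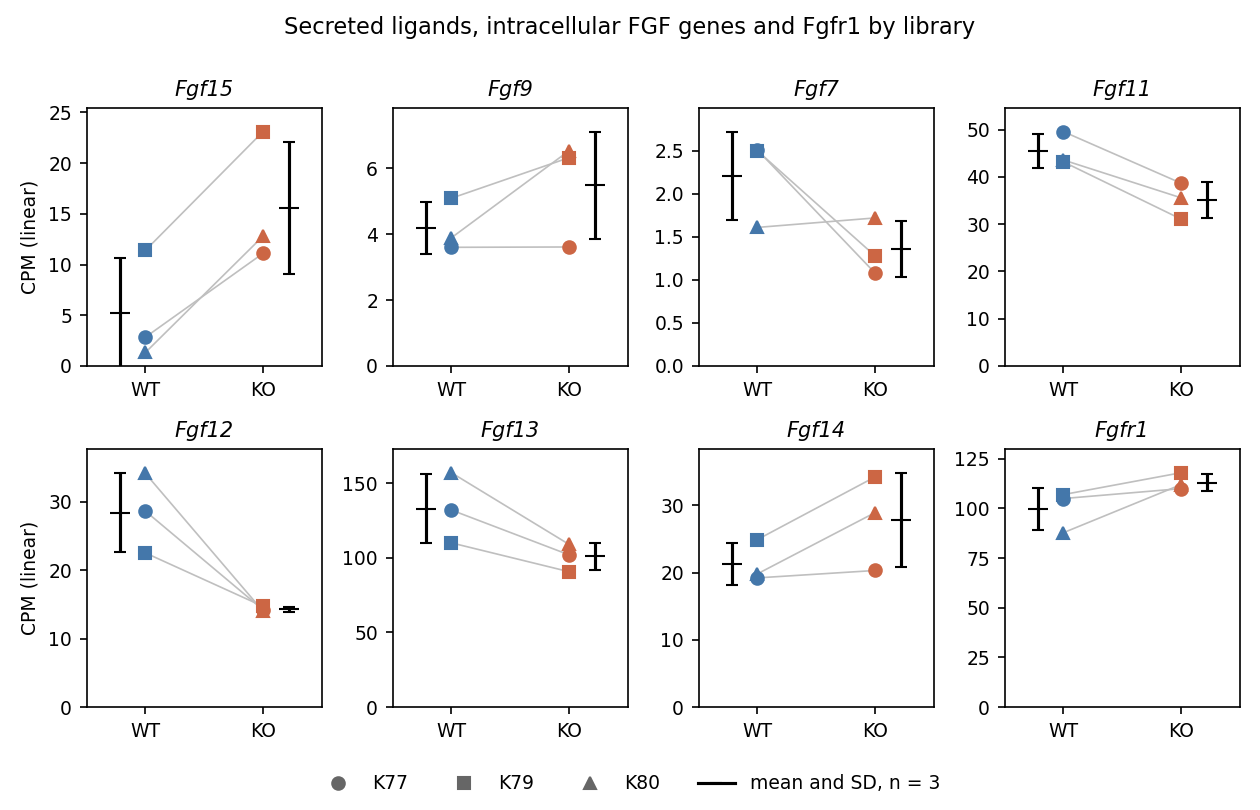
Level in CPM (linear y axis from 0) of 3 secreted ligands, the 4 intracellular FGF genes and Fgfr1 in each library, with lines joining libraries of the same K number and bars giving the mean and SD of 3 libraries (the lower end of the WT bar of Fgf15 runs below 0). Fgf12 lies between 14.0 and 14.7 CPM in KO and at 22.5 CPM or above in WT, and the WT K79 library of Fgf15 lies within the KO range.

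The secreted ligands were scarce, and 12 of the 18 did not pass the filter on low counts. Their summed level was 14.1, 25.1 and 10.2 CPM in WT and 20.7, 40.4 and 26.5 CPM in KO, with the K79 library the highest of each genotype. Fgf15, a ligand of the ventral and midline forebrain, had the highest mean in both genotypes, in WT through the K79 library, since in WT K77 and K80 Fgf9 was higher. Fgf15 stood at 2.84, 11.4 and 1.33 CPM in WT and at 11.1, 23.1 and 12.8 CPM in KO. WT K79 overlapped with KO, and within the 3 numbers KO stood 3.90, 2.02 and 9.62 times as high as WT. The log2 fold change was 1.58 (SE 0.563, edgeR adjusted p = 0.152). With the block it was 1.76 (edgeR adjusted p = 0.00635), and without WT K79 it was 2.94 (edgeR adjusted p = 0.00277). Exons of Fgf15 overlap annotated genes on the opposite strand.

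Markers of neural progenitors were also highest in the K79 library of each genotype, with a summed level of 2630 CPM in WT K79 against 2120 and 2100 in the other WT libraries. In KO the K79 sum was 2280 CPM against 2060 and 1890. None of the 12 markers was at 0. The part of progenitor content in the levels of Fgf15, Dusp6 and Il17rd was not tested.

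Fgf9, a ligand of neurons, stood at 3.60, 5.09 and 3.89 CPM in WT and at 3.61, 6.32 and 6.53 CPM in KO. The groups overlapped, and the log2 fold change of 0.40 was not called (SE 0.253, edgeR adjusted p = 0.469). Fgf7 stood at 2.51, 2.50 and 1.61 CPM in WT and at 1.08, 1.28 and 1.72 CPM in KO (log2 fold change -0.66 with SE 0.303, adjusted p = 0.282 by edgeR). Fgf3, Fgf17 and Fgf18 averaged under 2 CPM in each genotype and were not called, with log2 fold changes of 0.31, 1.54 and -0.25. The value of Fgf17 rests on 32 reads in KO K79, against 2 to 11 in the other 5 libraries.

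Of the ligands under the filter, Fgf8, which patterns the telencephalic midline with Fgf17, had 0, 1 and 1 reads in WT and 0, 11 and 7 in KO. Scaled for library size the summed KO reads were 9.20 times those of WT, with a 95% counting interval of 2.20 to 81.7 that covers counting error only. The KO K77 library held none, so the KO libraries themselves disagree. Fgf5 had 1, 8 and 2 reads in WT and 9, 8 and 10 in KO, and Fgf10 had 6, 6 and 3 reads in WT and 2, 1 and 2 in KO. Fgf1, Fgf2, Fgf16, Fgf20, Fgf22 and Fgf23 had 0 to 3 reads in every library. Fgf4, Fgf6 and Fgf21 had none in any, which allows up to 3 reads per library, or 0.272 to 0.361 CPM.

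No receptor gene was called, and Fgfr1, Fgfr2 and Fgfr3 differed little between the genotypes. Fgfr1, the main FGF receptor of neural tissue, stood at 105, 107 and 87.8 CPM in WT and at 110, 118 and 112 CPM in KO. The KO values lay just above the WT values, and the log2 fold change of 0.19 was not called (SE 0.0805, edgeR adjusted p = 0.254). Fgfr2 stood at 76.0, 76.3 and 76.5 CPM in WT and at 78.5, 78.6 and 61.7 CPM in KO, where KO K80 alone lay low (log2 fold change -0.07, 95% interval -0.28 to 0.14). Fgfr3 stood at 54.1, 50.9 and 35.8 CPM in WT and at 51.0, 46.3 and 38.5 CPM in KO, where the K80 library was the lowest of each genotype (log2 fold change -0.05, 95% interval -0.40 to 0.29). Fgfr4 averaged 1.55 ± 0.248 CPM in WT and 1.82 ± 0.145 CPM in KO. With 12 to 20 reads per library its 95% interval was wide, from -0.36 to 0.82 on the log2 scale. Fgfrl1, a receptor without a kinase domain, averaged 17.8 ± 1.93 and 15.9 ± 1.83 CPM (95% interval -0.46 to 0.13). Neither Fgfr4 nor Fgfrl1 was called. The 95% intervals of Fgfr1, Fgfr2 and Fgfr3 lie between -0.40 and 0.37 on the log2 scale.

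The adaptor genes were slightly higher in KO without a call. Frs2 stood at 118, 113 and 113 CPM in WT and at 125, 126 and 123 CPM in KO, and Frs3 at 17.7, 16.9 and 16.0 CPM in WT and 23.8, 20.3 and 19.3 CPM in KO. For both genes the KO and WT libraries did not overlap, as for 23.2% of all genes tested. The log2 fold changes were 0.12 (SE 0.0546, edgeR adjusted p = 0.291) and 0.32 (SE 0.115, edgeR adjusted p = 0.152).

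Set against each other per kilobase of exon in WT, the members formed a broad order. After Fgf13 came Fgf11 (14.9 ± 1.18 CPM per kilobase), Spred1 (13.6 ± 0.458), Frs2 (13.1 ± 0.352), Spry2 (11.2 ± 0.536), Spred3 (10.6 ± 0.997) and Fgfr1 (10.1 ± 1.05), of which Spred1 and Frs2, and Spry2, Spred3 and Fgfr1, do not differ beyond their spread. Fgfr2 (7.38 ± 0.0249), Fgfr3 (6.55 ± 1.36) and Fgfrl1 (6.39 ± 0.695) followed within 1 SD of Fgfr3. Fgf12 (4.57 ± 0.937) and Spry1 (3.11 ± 0.425) stood in the middle of the order, and Spry4 (1.29 ± 0.0804) lower. Among the secreted ligands Fgf15 had the highest WT mean, 1.70 ± 1.78 CPM per kilobase, which rests on the 3.73 of WT K79, and its lowest WT library (0.435) lay below every WT library of Fgf18 (1.05 or above). In KO, Spry1 stood at 7.61 ± 0.856 CPM per kilobase, within the spread of Fgfr2 (7.06 ± 0.939), and Spry4 at 0.414 ± 0.112.

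**Figure D4:**
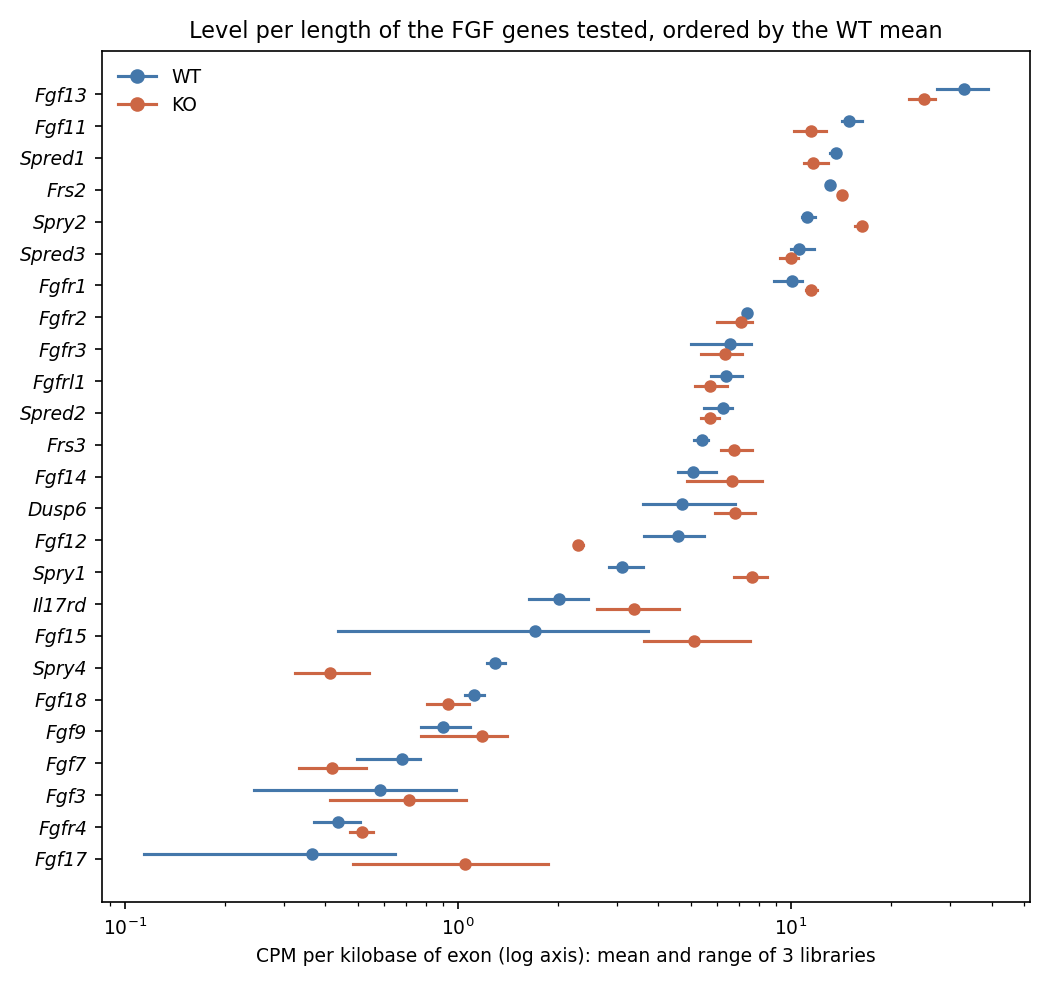
Level per length (x axis, CPM per kilobase of exon on a log scale) of the 25 FGF genes tested, ordered by the WT mean, with points for the mean and lines for the range of 3 libraries per genotype. Fgf13 tops the order at 33.0 CPM per kilobase in WT, and Spry4 and Spry1 show the widest separation of the WT and KO ranges in opposite directions.

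In the authors' deposited table of the comparison 11 members had an adjusted p under 0.05, against 5.54% of all rows with a value there. Besides the 4 edgeR calls these were Il17rd (0.74), Dusp6 (0.53), Fgf15 (1.59), Fgf17 (1.52) and Fgf8 (3.17) higher and Fgf13 (-0.40) and Fgf11 (-0.37) lower, as log2 values of the authors' deposited table. Its Fgf17 and Fgf8 values rest on the few reads given above.

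A list of FGF co-receptors, heparan sulfate genes and other partners, which also holds the intracellular Fgfr1op, Fgfr1op2 and Fibp, had 18 genes tested. Of these edgeR called 4 higher and 0 lower, against 3.64% and 2.62% of all genes (9 at an unadjusted p under 0.05, 6 calls by DESeq2 and 4 by limma voom), and the median log2 fold change was 0.09. Gpc4, a glypican carrying heparan sulfate, rose from 56.4 ± 8.13 to 114 ± 4.95 CPM (log2 fold change 1.02 with SE 0.0997, adjusted p = 0.000308 by edgeR). Flrt3, a membrane protein known to bind FGF receptors, rose from 81.5 ± 3.26 to 134 ± 9.62 CPM. Sulf1, whose product removes sulfate groups from heparan sulfate, rose from 7.11 ± 4.82 to 34.9 ± 16.1 CPM, and Hs6st1, whose product adds such groups, from 76.8 ± 3.74 to 99.6 ± 6.25 CPM. Sulf1 and Hs6st1 lost their calls when KO K79, KO K80 or WT K77 was left out, with adjusted p up to 0.0628 and 0.0733, which left 2 genes called each time, while 7 were called when WT K79 was left out. With the block 6 genes were called higher and 1 lower, against 10.6% of all genes in either direction.

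Of the kinases and adaptors between the receptors and the nucleus, few were called. Among 38 genes of the Ras, ERK and PI3K relay edgeR called 2 higher and 1 lower, a share near the 6.27% of all genes, and the median log2 fold change was 0.03. The summed level was 4960 to 5100 CPM in WT and 5090 to 5120 CPM in KO. The called genes were the 2 KSR scaffolds, which hold the kinases of the ERK cascade together, and the ERK kinase gene Map2k1. Ksr1 fell from 68.9 ± 5.77 to 44.8 ± 3.42 CPM, and Ksr2 rose from 7.57 ± 0.692 to 13.4 ± 0.458 CPM. Map2k1 rose from 25.1 ± 1.33 to 36.6 ± 2.69 CPM. Log2 fold changes were -0.62 for Ksr1 (SE 0.0886, edgeR adjusted p = 0.00253), 0.82 for Ksr2 (SE 0.135, edgeR adjusted p = 0.00539) and 0.54 for Map2k1 (SE 0.0908, edgeR adjusted p = 0.00576). With the block 4 rose and 2 fell, against 10.6% of all genes, and 4 rose without WT K79.

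Genes listed as raised by FGF and ERK signalling went both ways, as the Sprouty genes did. Among 26 genes with enough reads, 1 rose and 5 fell, against 3.64% and 2.62% of all genes, and 20 gave no call, with a median log2 fold change of -0.11. The ETS factor gene Etv5, a widely used FGF target, stood at 7.74, 7.87 and 8.73 CPM in WT and at 3.01, 3.75 and 2.09 CPM in KO, a fall of 2.76-fold (log2 fold change -1.47 with SE 0.220, adjusted p = 0.00330 by edgeR). The oligodendrocyte precursor markers, given above, were lower in KO too, and their part in this fall was not tested. Among the relatives of Etv5, Etv4 (-0.46, adjusted p = 0.389) and Etv1 (-0.02, adjusted p = 0.959) were not called by edgeR. The ERK phosphatase gene Dusp4 rose instead, from 208, 221 and 259 CPM in WT to 328, 326 and 330 CPM in KO (log2 fold change 0.52 with SE 0.0801, adjusted p = 0.00400 by edgeR). Egr1 (-1.38), Phlda1 (-0.79) and Nr2f1 (-0.68) also fell. Nr2f1 is known to be repressed by FGF8 in the telencephalon, so the list mixes genes raised and lowered by the signal. Without WT K77 or KO K79, 3 members fell. Egr1 lost its call without any library but WT K79 or KO K77 (adjusted p up to 0.172) and with limma voom, and Phlda1 without WT K77, KO K79 or both K79 libraries (up to 0.0791).

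**Figure D5:**
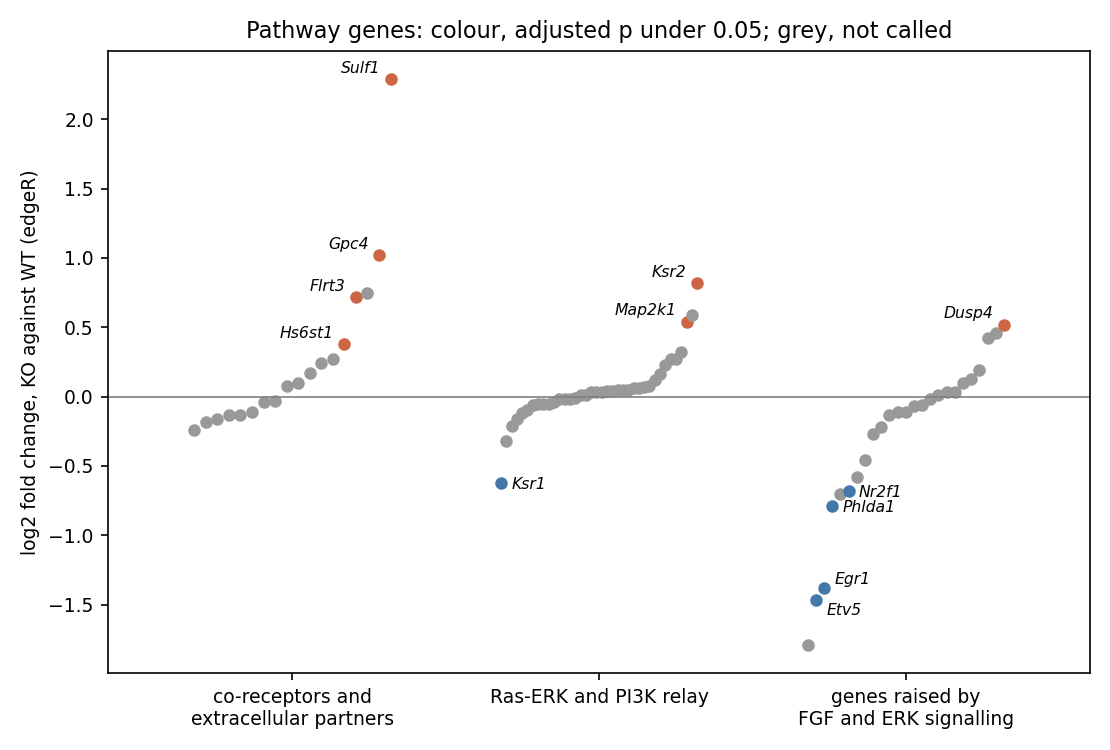
Log2 fold change (y axis, KO against WT) of tested genes of 3 lists, co-receptors and extracellular partners (18 genes), the Ras, ERK and PI3K relay (38) and genes listed as raised by the signal (25 of the 26), sorted within a list. Coloured and named points were called by edgeR, and Etv5 at -1.47 and Dusp4 at 0.52 show targets going both ways.

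A list of receptor tyrosine kinases of other families, whose signals also reach Sprouty genes, had 14 genes tested. Of these edgeR called 4 lower and 0 higher, against 2.62% and 3.64% of all genes, with a median log2 fold change of -0.12 (5 at an unadjusted p under 0.05, and 4 calls each by DESeq2 and limma voom). They were Pdgfra (-2.29), itself among the oligodendrocyte precursor markers, Egfr (-1.54), Erbb4 (-0.87) and Ntrk2 (-0.54), and Erbb4 lost its call without KO K80 (edgeR adjusted p = 0.0509). Of the markers of other cell types, 0 of 8 endothelial and pericyte, 0 of 3 erythroid, 0 of 1 microglial and 0 of 7 cortical glutamatergic genes tested were called by edgeR, DESeq2 or limma voom, with 1, 0, 0 and 1 at an unadjusted p under 0.05. Summed, the endothelial and pericyte markers held 24.5 to 42.7 CPM in WT and 25.7 to 37.4 CPM in KO, and with the block 1 of them was called higher and 1 erythroid gene lower. The cortical glutamatergic markers held more, 423, 313 and 199 CPM in WT K77, K79 and K80 and 273, 218 and 245 CPM in KO. The erythroid markers held 13.9 to 24.2 CPM in WT and 7.52 to 18 CPM in KO, and the microglial 3.46 to 4.47 and 2.36 to 3.25 CPM. Which cells these transcripts came from was not tested. Hba-a1, an erythroid marker, was at 0 in all 6 libraries.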

How the data were processed

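Messenger RNA levels come from 3 WT and 3 KO libraries. The authors deposited whole read counts per gene, not normalized. The submitters' processing notes list TopHat 1.2.0, HTSeq 0.5.3p3, DESeq 1.2.2 and the mm9 build without saying what each did. The annotation and strand setting are both not given in the sources used here, and 7 of the 25 tested members overlap exons on the opposite strand in a later annotation. A table of the authors' own comparison holds, per the file headers, fold changes (a ratio), log2 values of them and p-values. Variance columns (a score) were deposited with it and gave no result here, and its 3 mean columns were not used. KO over WT was taken as its direction since all 777 calls it shares with edgeR have 1 sign in both. Rows naming no gene were left out: the unassigned row took 19.75 to 21.77% and the ambiguous row 1.94 to 1.99% of counts.

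edgeR 4.0.16 in R 4.3.3 was run with TMM scaling, its quasi-likelihood test on the 13835 genes that filterByExpr kept (minimum count 10), and Benjamini-Hochberg adjustment, called at 0.05. The SE is the log2 fold change over the square root of F. Depth was 8323531 to 11069437 counts, which limits precision most for the secreted ligands. On simulated counts for KO against WT, in a step of 13694 genes, 69.4% of 1.5-fold, 86% of 2-fold and 100% of 3-fold changes were recovered. Only genes that passed the filter were counted, and all were simulated with 1 common coefficient of variation (9.26%). The rates therefore do not carry over to genes that vary more between libraries, such as Fgf15 and Dusp6. Deviations from the group mean correlated at 0.256 (K77), 0.197 (K79) and 0.175 (K80) between same-numbered libraries, all over the limit of 0.1. On this basis a further fit took the K number as a block, which pairs same-numbered libraries. The main fit did not use the block. Unless stated otherwise, calls, log2 fold changes, SEs, adjusted p-values and intervals come from the main fit and ignore the pairing. The main fit called 2 members higher and 2 lower, and the fit with the block 5 and 4. Values from the fit with this block stand beside results whose call they change. Exon lengths come from GENCODE M21, a later build than mm9.

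Named were members called with or without the block, by DESeq2 or by voom, the 3 most abundant of each role, and called list genes, or otherwise the 2 most abundant. Some further members are named with fewer values. Members, lists and tests were chosen with earlier results of these data known. Alternatives were other scalings, DESeq2 1.42.0, limma 3.58.1 voom, other filters, the block and leaving out libraries. Leaving out both K79 libraries was chosen after seeing the data. Results on some genes of the lists are not reported here.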

Additional observations from a re-analysis of the deposited data

How the results depend on the processing

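The calls of Spry1, Spry2, Spry4, Fgf12 and Zeb2 kept direction and significance in all 14 alternatives. Over these, log2 fold changes ran from 1.21 to 1.41 for Spry1, from 0.51 to 0.58 for Spry2, from -1.88 to -1.47 for Spry4 and from -1.15 to -0.84 for Fgf12, with adjusted p up to 0.00569, 0.0335, 0.0171 and 0.0254. Of 280 values of named members under alternatives, 0 lost a call or reversed one and 20 gained one. Only Spry1, Spry2, Spry4 and Fgf12 had a call to lose, so the values of the other members could not show a loss. A change of sign without a call was not counted, as for Fgfr2 (-0.13 to 0.04) and Fgfr3 (-0.22 to 0.06). The added calls were Fgf11, Fgf13, Fgf15, Il17rd and Dusp6, and the cause was not tested.

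Members called higher numbered 4 with no filter, 5 with the replicate block, 5 without both K79 libraries and 2 to 5 with 1 library left out, 5 of them without WT K79. Members called lower numbered 4 with no filter, 4 with the block and 2 to 3 with 1 library left out. Over all genes 1463 were called with the replicate block, and 445 to 1044 with 1 library left out. In the co-receptor list 2 to 7 genes were called higher with 1 library left out and 1 lower with the block. In the relay list 4 were called higher with no filter, 4 higher and 2 lower with the block, and 2 to 4 higher with 1 library left out. In the list of targets 3 to 6 fell with 1 library left out. No other list count or named gene of the report lost its call with the block. Leaving out a library leaves 2 in its group, and both groups share the estimate of spread. Depth limits the ligands: 12 of 18 were below the filter.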
